A study of Mus musculus with 13 samples.

Results

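A set of 638 bivalent domains of mouse neural stem cells (NSCs) carried H3K4me3 without H3K27me3 at the next stage, the oligodendrocyte progenitor cell (OPC). A bivalent domain was the merged span of an H3K4me3 and an H3K27me3 called peak that overlapped by at least 1 bp in NSCs. The 638 were chosen by the called peaks of NSCs and OPCs, as domains that overlapped an OPC H3K4me3 peak and no OPC H3K27me3 peak, out of 6826 domains in all (9.35%, exact binomial 95% interval 8.67 to 10.1). The marks of NSCs and OPCs are therefore a description. The marks of newly formed oligodendrocytes (NFOs), the OLIG2 peaks, the genes and the sequence were not used to choose them. In such bulk cells a mark held by fewer cells and a mark weaker in each cell cannot be told apart. In OPCs, 936 of the other domains had both marks, 1609 had H3K27me3 alone and 3643 had neither.

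H3K4me3 is deposited at active and poised promoters by trithorax-group methyltransferases, and H3K27me3 is the mark of Polycomb repressive complex 2. A promoter with both marks in a stem cell is called bivalent: it is typically silent or weakly transcribed, and during differentiation it can lose either mark. OLIG2 is a basic helix-loop-helix factor required for the oligodendrocyte lineage that binds E-box sequences.

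The 6 histone libraries covered both marks in NSCs, OPCs and NFOs, and 2 further libraries covered OLIG2 in OPCs and NFOs, with 1 library per condition and no treatment or transgene named for any of them. NSCs were bought and cultured with EGF and FGF. The protocol gives them as cortical cells of E14.5 CD-1 embryos, whereas the strain label is C57BL/6. OPCs and NFOs came from C57BL/6 brains at postnatal day 7, by immunopanning on PDGFRα antibody and then on GalC antibody. With no replicates there is no test between cell types, and all intervals cover the counting of domains or peaks only, since the lists give no read depth.

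The lists held 33292 H3K4me3 and 36069 H3K27me3 peaks for NSCs, with 18284 and 29417 for OPCs and 21736 and 12688 for NFOs, beside 7384 OLIG2 peaks in OPCs and 16911 in NFOs. Peak names show single-end reads in NSCs and paired-end reads in the other cells, so widths and folds are not on the same scale across cell types. The antibody fields name the opposite histone mark from the titles, and the titles were used. A TSS was within 2 kb of 50.5% to 75.1% of the peaks titled H3K4me3 and of 12.4% to 27.7% of those titled H3K27me3. The cell labels were checked at the TSS (within 2 kb) of marker genes. All 5 OPC markers (*Pdgfra*, *Cspg4*, *Olig1*, *Olig2* and *Sox10*) had H3K4me3 and none had H3K27me3 in OPCs, and all 4 NSC markers had H3K4me3 in NSCs. H3K4me3 was also called at all 5 OPC markers in NSCs and at all 4 NSC markers in OPCs, so these marker promoters do not separate the cell types. Of the NFO markers, *Mbp*, *Mog*, *Mag*, *Enpp6* and *Myrf* had no H3K4me3 in NFOs, and *Mbp* and *Myrf* had it in OPCs. H3K4me3 was called in OPCs at 1 of 4 microglia, 1 of 3 endothelial, 1 of 3 astrocyte and 3 of 4 neuron markers.

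The following stretches of the mm10 (GRCm38) forward strand, taken from the RefSeq genome, are the bases where the NSC H3K4me3 and H3K27me3 peaks overlapped at 3 oligodendrocyte lineage genes. Capitals mark a run, meaning 12 or more A in a row or 12 or more T in a row. The Sox10 stretch is chr15:79163862-79164062 (intron), the Zfp488 stretch chr14:33977077-33977325 (intron) and the Pcdh15 stretch, shown as one without a run, chr10:73098753-73099051 (intergenic, before the annotated start).
Sox10: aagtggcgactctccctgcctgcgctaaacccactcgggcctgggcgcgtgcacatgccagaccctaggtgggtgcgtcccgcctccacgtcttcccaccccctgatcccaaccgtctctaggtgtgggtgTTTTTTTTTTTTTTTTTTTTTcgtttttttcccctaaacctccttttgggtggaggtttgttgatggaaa
Zfp488: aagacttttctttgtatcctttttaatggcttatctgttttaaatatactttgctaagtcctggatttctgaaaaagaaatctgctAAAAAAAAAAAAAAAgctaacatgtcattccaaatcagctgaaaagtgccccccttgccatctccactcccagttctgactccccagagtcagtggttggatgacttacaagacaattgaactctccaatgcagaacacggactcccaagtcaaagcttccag
Pcdh15: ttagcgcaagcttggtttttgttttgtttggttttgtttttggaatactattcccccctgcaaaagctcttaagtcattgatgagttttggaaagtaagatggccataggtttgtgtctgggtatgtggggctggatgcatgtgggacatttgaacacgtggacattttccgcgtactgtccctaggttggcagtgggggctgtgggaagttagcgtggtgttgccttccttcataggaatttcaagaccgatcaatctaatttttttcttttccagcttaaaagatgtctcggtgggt

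The next stretches are OPC OLIG2 peaks inside the domains that an NFO OLIG2 peak also overlapped, shown because OLIG2 was called in these domains at both stages. Sox4, an SRY-box factor gene, was added after its values were seen. Capitals mark the E-box CANNTG, which reads the same on either strand, as well as runs of 12 or more A or T. The Virma peak is chr4:11485624-11485853 (intergenic), the Spock2 peak chr10:60105956-60106185 (intergenic), the 2210016F16Rik peak chr13:58384483-58384712 (intron), the Sox4 peak chr13:28954281-28954510 (intergenic) and the peak near Astn2 chr4:66401243-66401472 (intron), all of mm10 and on the forward strand.
Virma: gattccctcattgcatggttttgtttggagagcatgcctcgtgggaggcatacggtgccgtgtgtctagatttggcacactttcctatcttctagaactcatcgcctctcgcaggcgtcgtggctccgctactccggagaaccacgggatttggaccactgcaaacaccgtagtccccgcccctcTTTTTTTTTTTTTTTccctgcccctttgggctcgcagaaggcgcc
Spock2: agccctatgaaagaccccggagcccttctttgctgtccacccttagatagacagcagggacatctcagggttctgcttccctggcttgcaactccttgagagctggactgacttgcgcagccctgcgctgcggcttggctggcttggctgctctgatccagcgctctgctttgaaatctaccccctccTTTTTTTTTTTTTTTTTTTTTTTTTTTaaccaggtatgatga
2210016F16Rik: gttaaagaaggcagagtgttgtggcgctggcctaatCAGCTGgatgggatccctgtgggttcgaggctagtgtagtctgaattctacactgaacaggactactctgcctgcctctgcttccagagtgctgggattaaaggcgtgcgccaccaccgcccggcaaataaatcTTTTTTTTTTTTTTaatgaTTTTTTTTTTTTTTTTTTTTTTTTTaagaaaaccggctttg
Sox4: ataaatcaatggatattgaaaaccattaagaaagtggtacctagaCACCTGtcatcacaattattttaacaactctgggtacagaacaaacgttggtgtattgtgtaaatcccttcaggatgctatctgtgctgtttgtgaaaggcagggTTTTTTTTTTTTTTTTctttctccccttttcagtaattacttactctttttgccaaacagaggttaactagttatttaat
Astn2: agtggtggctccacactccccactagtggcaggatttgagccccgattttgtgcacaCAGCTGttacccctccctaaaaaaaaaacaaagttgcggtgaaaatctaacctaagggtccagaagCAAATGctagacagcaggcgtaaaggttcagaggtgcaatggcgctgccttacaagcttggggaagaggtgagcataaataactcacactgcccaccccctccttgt

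Named regulators of the oligodendrocyte lineage lay in these domains. *Sox10*, the HMG-box factor that drives oligodendrocyte specification and myelin genes, had a domain of 411 bp at chr15:79163781-79164191, starting 283 bp from its TSS. In NSCs the H3K4me3 peak there was 201 bp wide with a 3.60-fold enrichment over input, and the H3K27me3 peak was 411 bp wide with 5.61-fold. In OPCs a single H3K4me3 peak of 6336 bp (8.88-fold) covered it, and in NFOs a peak of 379 bp (19.2-fold). The nearest OPC H3K27me3 peak was 63590 bp away. The NSC H3K27me3 peak at *Sox10* held a run of 21 T at its centre, as printed above.

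*Zfp488*, a zinc finger gene known to promote oligodendrocyte differentiation, had an NSC H3K4me3 peak of 1652 bp (6.09-fold) and an NSC H3K27me3 peak of 298 bp (4.64-fold) at the downstream end of it. Its H3K4me3 peak was 1749 bp wide in OPCs (10.6-fold) and 7.01-fold enriched in NFOs. *Zfp536*, a zinc finger repressor of neuronal differentiation, had a domain of 4036 bp on chromosome 7 with NSC H3K27me3 peaks of 598 bp (7.22-fold) and 327 bp (4.96-fold) on either side of the TSS. OPCs had 1 H3K4me3 peak of 4273 bp there (9.36-fold) and NFOs had 3 narrower ones. Runs of 15 bases at *Zfp488* and up to 17 at *Zfp536* lay in the H3K27me3 peaks.

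OPC and myelin genes were few. *Pcdh15*, a protocadherin gene expressed in OPCs, had a 299 bp NSC H3K27me3 peak (3.85-fold) inside a 2092 bp H3K4me3 peak (5.98-fold), and H3K4me3 of 6.68-fold in OPCs and 3.87-fold in NFOs. *C1ql1*, which encodes a secreted C1q-like protein, had a 508 bp NSC H3K27me3 peak (3.61-fold), and H3K4me3 of 8.27-fold in OPCs and 3.25-fold in NFOs. *Ugt8a*, whose enzyme makes the galactosylceramide of myelin, had the widest NSC H3K27me3 peak of these genes, at 1443 bp (4.997-fold). Its domain was the single one of the 6 genes drawn that had an OLIG2 peak, in NFOs with 17.0-fold enrichment, in the intron 2489 bp after the TSS. *Rbfox3*, the neuronal splicing factor known as NeuN, had OPC H3K4me3 (5.10-fold), no NFO H3K4me3 and an NFO H3K27me3 peak of 620 bp (3.34-fold), with an OPC H3K27me3 peak 469 bp outside the domain.

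**Figure D1:**
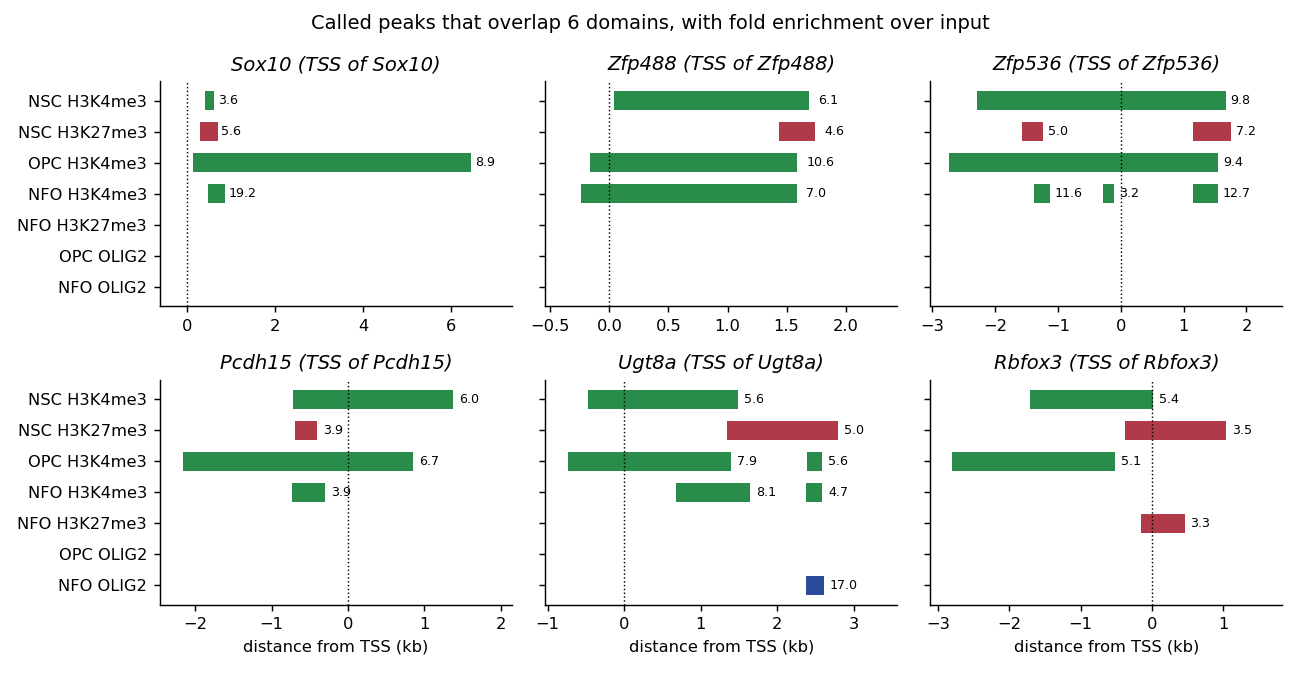
Called peaks that overlap the domains of Sox10, Zfp488, Zfp536, Pcdh15, Ugt8a and Rbfox3, with distance from the TSS in the direction of the gene in kb on the x axis, the library on the y axis and the fold enrichment over input beside each bar. The NSC H3K27me3 bars are short beside the OPC H3K4me3 bars at Sox10 (411 against 6336 bp) and Pcdh15 (299 bp), and Rbfox3 is the gene with NFO H3K27me3.

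The gene lists, which were assembled with earlier results of these data known, place the same genes among their kind. Of all 2659 genes with an NSC bivalent domain within 2 kb of a TSS, 658 (24.7%) had one that was H3K4me3 only in OPCs and 1014 (38.1%) had one with both marks. Of 25 oligodendrocyte transcription factors, 8 had such a domain, and 3 of these were H3K4me3 only in OPCs, 3 kept both marks, 1 had H3K27me3 alone and 1 had no mark. Of 14 OPC genes 3 had a domain, and 2 were H3K4me3 only. Of 17 myelin and oligodendrocyte genes 3 had a domain, and *Ugt8a* was H3K4me3 only. Of 15 Polycomb and trithorax genes 4 had a domain and 1 was H3K4me3 only, *Kmt2a*, the H3K4 methyltransferase, with a 1379 bp NSC H3K27me3 peak of 3.07-fold.

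In the Hox and neuronal lists more genes had a domain with both marks. All 39 Hox genes had an NSC bivalent domain, and 36 kept both marks in OPCs while 0 were H3K4me3 only. These are counts of genes. Several genes can share 1 merged span, and spans that kept both marks reached 117916 bp, so the genes are not separate domains. Of 19 neuronal fate genes 14 had a domain, and 12 kept both marks while 1, *Rbfox3*, was H3K4me3 only. The 3 neural stem cell genes with a domain, of 17, all kept both marks. No astrocyte gene of 9 had a domain, and the 1 microglia or endothelial gene of 13 with a domain kept both marks.

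A last list of 16 genes was taken from the study's text. It was chosen by its authors on these samples, so it is not independent evidence. It held 15 genes named for H3K4me3 alone in OPCs. With all listed peaks used, all 15 had such a domain, which their choice on these samples makes likely. The other gene, *Epcam*, which encodes an adhesion molecule, is named there for both marks in OPCs and had both here. For the 15, NSC H3K27me3 peaks were under 500 bp in 10, among them *Ptprk*, a receptor tyrosine phosphatase gene, with 361 bp (6.18-fold), *Fbll1*, a fibrillarin-like gene, with 469 bp (6.42-fold) and *Bnip3l*, a mitophagy receptor gene, with 276 bp (3.86-fold). In 9 of 15 the centre of the H3K27me3 peak held a run of A or T. The peak passed the fold and FDR filter of the study's methods (fold above 3.5, FDR below 0.05) in 9 of 15. In 2 of 15, *Pcdh15* and *Ugt8a*, the peak both passed this filter and had no run at its centre. Elsewhere the *Ugt8a* peak held a run of 34 bases, whereas the longest in the *Pcdh15* peak was 7. *Slc1a1*, a glutamate transporter gene, *Kif26a*, an atypical kinesin gene, *Rell1* and *2210016F16Rik* had H3K27me3 peaks of 875 to 1181 bp at 2.68- to 2.93-fold, below that filter. *Cadm2* (3.36-fold) and *Tmem132d* (3.28-fold) were below it too.

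H3K27me3 in NSCs was narrower in the 638 domains than in those that kept both marks, and wider than over all domains. Its width per domain had a median of 604.5 bp (95% interval 501 to 714, range 274 to 4853), against 1297 bp (1190 to 1410) in the 936 domains that kept both marks and 442 bp (423 to 469) over all domains. It was under 500 bp in 293 (45.9%) and 1 kb or more in 206 (32.3%), against 25.5% and 58.8% of the domains that kept both marks and 52.8% and 29.6% of all domains. The whole H3K27me3 peak lay inside the H3K4me3 peak in 219 domains (34.3%), against 19.4% of those that kept both marks. The fold enrichment of H3K27me3 had a median of 3.504 (3.44 to 3.61), against 4.28 (4.16 to 4.39), while that of NSC H3K4me3 was 8.20 against 6.34. The peaks of the 638 were thus narrower and lower for H3K27me3 and higher for H3K4me3 than those of the domains that kept both marks. Width and fold are values of the libraries that chose the domains and are given without a test. The rule separates these groups by overlap with an OPC H3K27me3 peak, which a wider domain can meet more readily. Whole domains reached 7952 bp among the 638 and 117916 bp among those that kept both marks.

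Narrow and wide H3K27me3 peaks differed in fold and in runs at their centre. The 293 domains under 500 bp had a median fold of 4.04 (3.94 to 4.13) and the 206 of 1 kb or more had 3.15 (3.08 to 3.25), so that the wide peaks were the weaker ones. A window of 230 bases on the centre of the peak held a run of 12 or more A or T in 258 of 301 H3K27me3 peaks under 500 bp (85.7%, 81.2 to 89.5), beside 1.99% and 0.332% in windows 1 kb before and after. In the 200 peaks of 1 kb or more it did so in 16 (8.0%, 4.64 to 12.7), beside 9.5% and 7.0% at 1 kb. Among all 36021 placed NSC H3K27me3 peaks the share was 58.5%, against 2.33% and 2.30% at 1 kb, and in the domains that kept both marks it was 86.7% of the 286 narrow peaks and 6.95% of the 547 wide ones. Runs at the centre thus went with narrow peaks here and in the domains that kept both marks, and were not particular to these domains. The window spans a small part of a wide peak, and runs elsewhere in the peak were not counted. The longest run anywhere in the H3K27me3 peak was 34 bases at *Ugt8a* and 10 at *Rbfox3*. The part of runs in the calls was not tested.

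**Figure D2:**
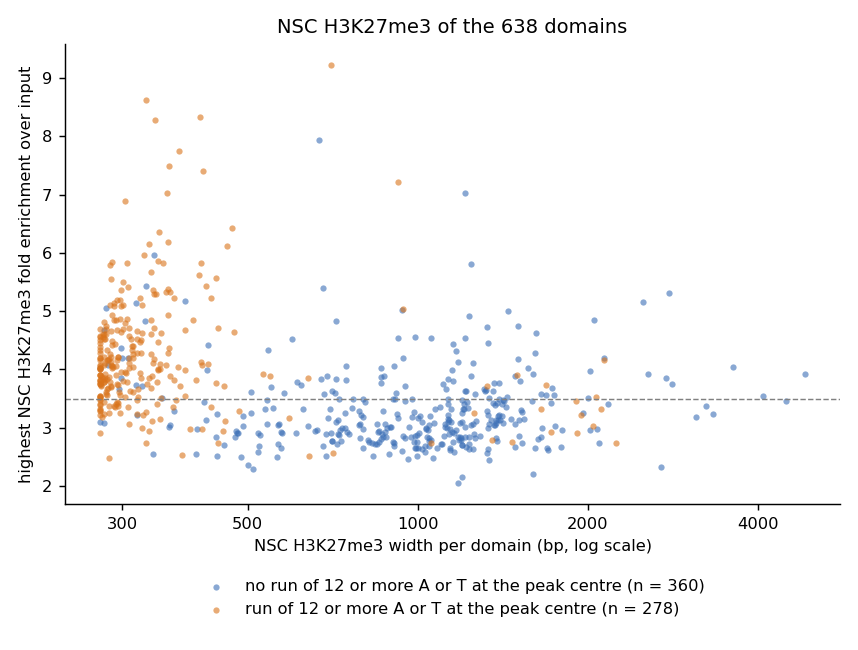
NSC H3K27me3 width per domain in bp (log scale) against its highest fold enrichment over input, for the 638 domains. Orange points, 278 domains with a run of 12 or more A or T at a peak centre, gather at the left with a median width of 308 bp, blue points, the 360 without, have a median of 1033.5 bp, and the dashed line is the 3.5-fold filter of the study's methods.

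Counted by domain, 278 of the 638 (43.6%, 39.7 to 47.5) had a run at the centre of an NSC H3K27me3 peak, against 32.5% (29.5 to 35.6) of those that kept both marks and 50.8% over all domains. The 278 had a median H3K27me3 fold of 4.04 and the other 360 of 3.13. In 320 domains (50.2%) the highest fold and FDR of H3K27me3 passed the filter of the study's methods, against 67.8% of all domains and 71.9% of those that kept both marks. Of the 320, 219 had a run, leaving 101 (15.8%) that passed and had none. Of all 638, an NFO H3K4me3 peak was called in 81.3% (76.2 to 85.7) with a run and 76.1% (71.4 to 80.4) without, and a TSS within 2 kb in 78.4% (73.1 to 83.1) and 81.1% (76.7 to 85.0), with intervals that overlap. NFO OLIG2 peaks were called in 11.2% (7.70 to 15.5) with a run and 18.6% (14.7 to 23.0) without. These intervals met only between 14.7% and 15.5%, and such an overlap does not show that the shares are alike. OPC OLIG2 peaks were called in 11.2% with a run and 10.8% without. In the domains that kept both marks, NFO OLIG2 peaks were called in 15.8% with a run and 13.6% without.

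The widest and strongest H3K27me3 marks belonged to different genes. The widest, 4853 bp at chr17:36082555-36087407, had no TSS within 2 kb and no NFO mark. It was followed by *Anks1b*, which encodes a postsynaptic protein, with 4489 bp (3.46-fold), a region near AC138457.1 with 4093 bp, *Slc6a15*, a neutral amino acid transporter gene, with 3618 bp (4.04-fold), and *Rspo3*, a Wnt agonist gene, with 3337 bp (3.23-fold). The rest of the widest 10 were *Atg14*, *Gmeb1*, *Fgf12*, *Dmrta1* and *Shisa7*, at 2747 to 3233 bp. By fold the first was *Setbp1* (9.22-fold, 702 bp), followed by a region near Gm27211 (8.62-fold), *Abcg1*, a cholesterol exporter gene (8.33-fold), *Shank2*, a postsynaptic scaffold gene (8.28-fold), and *Mir124a-1hg*, a host gene of the neuronal microRNA miR-124 (7.94-fold). All 5 were under 1 kb wide, and 4 of them, all but *Mir124a-1hg*, had a run at a peak centre. H3K27me3 of *Mir124a-1hg* held a run of 31 bases elsewhere.

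H3K4me3 of OPCs lay on the NSC H3K27me3 peak itself in 415 domains (65.0%), and elsewhere in the domain in the others. An OPC H3K27me3 peak was within 2 kb outside the domain in 51 (8.0%) and within 10 kb in 170 (26.6%), and none was within 100 kb in 144 (22.6%). Just inside the rule, *Mir124a-1hg* had an OPC H3K27me3 peak 7 bp beyond the domain and the region near AC138457.1 had one 24 bp beyond. Just outside it, *Fibcd1* had 49 bp and *Tmem106b* 67 bp of OPC H3K27me3 within the domain. Of all NSC H3K27me3 peaks, 79.1% overlapped no OPC H3K27me3 peak.

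In NFOs the domains largely stayed without H3K27me3. NFO H3K4me3 was called in 500 of the 638 (78.4%, 74.97 to 81.5), against 28.3% of all 6826 domains. The share was 79.0% (76.2 to 81.5) in the domains that kept both marks in OPCs, and 63.9% (63.0 to 64.7) among 12027 NSC H3K4me3 peaks without H3K27me3 that were H3K4me3 only in OPCs (the non-bivalent peaks). NFO H3K27me3 was called in 12 (1.88%, 0.976 to 3.26), against 19.1% of all domains, 70.0% (66.9 to 72.9) of those that kept both marks and 1.12% (0.942 to 1.33) of the H3K4me3 peaks that were non-bivalent. By state, 496 were H3K4me3 only in NFOs, 4 had both marks, 8 had H3K27me3 alone and 130 had no mark. The share with NFO H3K27me3 was below that of the domains that kept both marks, and its interval overlapped that of the non-bivalent peaks.

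**Figure D3:**
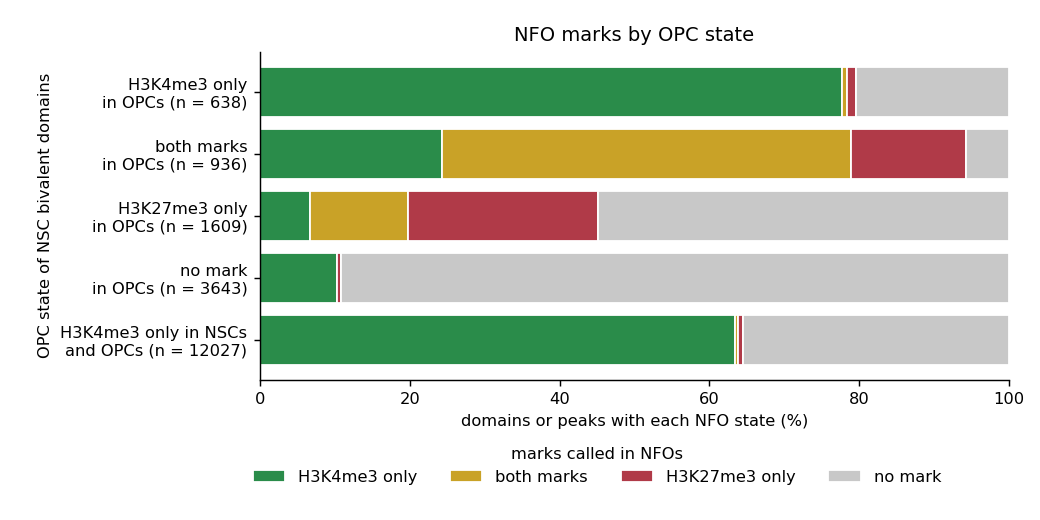
Share of domains (%) with each NFO state, for the 4 OPC states of the NSC bivalent domains and for NSC H3K4me3 peaks without H3K27me3 that were H3K4me3 only in OPCs. The 638 domains are 77.7% H3K4me3 only in NFOs, and those that kept both marks in OPCs are 54.7% still with both.

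The 5 domains with the most NFO H3K27me3 were *Lamp5*, a lysosome-associated membrane protein gene of neurons (1517 bp, 3.62-fold), *Mff*, a mitochondrial fission gene (926 bp, 3.92-fold), *Glra2*, a glycine receptor gene on the X chromosome (660 bp, 3.06-fold), the region near AC138457.1 (643 bp, 3.44-fold) and *Rbfox3*. Of these 5, *Glra2* also had NFO H3K4me3 (11.8-fold) and the other 4 had none. The 3 widest domains without NFO H3K4me3 were *Gmeb1* (6149 bp), *Yes1*, a Src-family kinase gene (5957 bp), and *Smad1*, a transducer of BMP signals (5444 bp), with OPC H3K4me3 of 4.07-, 5.54- and 6.10-fold.

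Presence of an NFO peak did not mean H3K4me3 over the start site. Of the 638 domains, 510 had a TSS of a protein-coding or lncRNA gene within 2 kb (79.9%, 76.6 to 83.0), against 32.6% of all domains, 79.6% of those that kept both marks and 89.0% of the non-bivalent peaks. These belonged to 658 genes, 547 protein-coding and 111 lncRNA, and 35 of the genes also had a domain with another OPC state. At the 510, H3K4me3 of NSCs covered 93.9% of TSS bases, that of OPCs 86.3% and that of NFOs 24.1%. NFO peaks that overlapped a domain had a median summed width of 666.5 bp (597 to 773, n = 500), against 1376.5 bp (1279 to 1532) in OPCs, where the reads were also paired-end. Neither difference was particular to the 638. In the domains that kept both marks, H3K4me3 covered 16.8% of TSS bases in NFOs and 62.7% in OPCs, with widths of 521 and 988.5 bp. In the non-bivalent peaks the widths were 598 and 1238 bp. Single H3K4me3 peaks of the whole lists had medians of 255.5 bp in NFOs and 987 bp in OPCs. H3K27me3 of NSCs lay beside the TSS more than on it: it covered 8.04% of TSS bases, 20.0% of positions 1 kb upstream and 18.6% of those 1 kb downstream. In the domains that kept both marks it covered 39.3%, 44.4% and 47.0%.

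**Figure D4:**
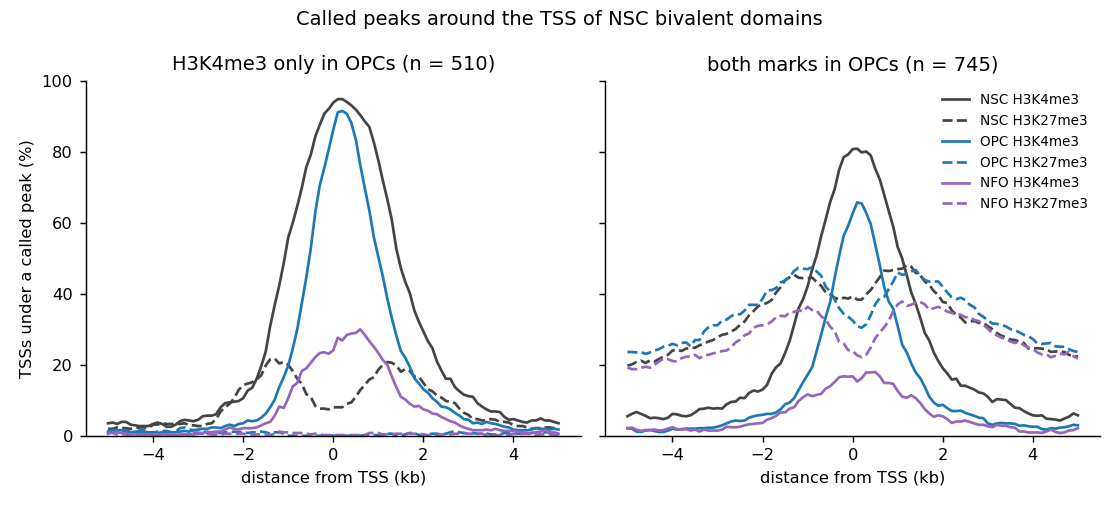
Share of TSSs (%) under a called peak at each distance from the TSS (kb), for the 510 domains that were H3K4me3 only in OPCs (left) and the 745 that kept both marks (right), with solid lines for H3K4me3 and dashed lines for H3K27me3. On the left NSC H3K27me3 reaches at most 21.8% and NFO H3K4me3 at most 30.0%, and on the right NSC H3K27me3 reaches 48.1%.

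The 128 domains away from any TSS were smaller, with a median NSC H3K4me3 width of 699 bp (508 to 846) against 2660.5 bp (2537 to 2750) at the 510. Their OPC H3K4me3 fold was 4.27 (3.87 to 4.59) against 6.73 (6.53 to 6.99), and NFO H3K4me3 was called in 75.8% (67.4 to 82.9) against 79.0% (75.2 to 82.5). In base composition the 638 had a median GC content of 48.7% (48.1 to 49.1), below the 50.6% (50.3 to 51.3) of the domains that kept both marks and the 53.2% (53.0 to 53.3) of the non-bivalent peaks. The ratio of observed to expected CpG was 0.520 (0.504 to 0.537), against 0.536 (0.521 to 0.549) and 0.613 (0.610 to 0.616), and at the 128 without a TSS it was 0.235. The 638 thus held fewer CpG than H3K4me3 peaks that were non-bivalent, and were close in this to the domains that kept both marks.

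On the X chromosome lay 54 of the 638 (8.46%, 6.42 to 10.9), against 5.51% (4.98 to 6.08) of all domains, 4.17% (2.98 to 5.65) of those that kept both marks, 3.14% of the non-bivalent peaks and 10.0% of all NSC H3K27me3 peaks. Their NSC H3K27me3 was narrow, with a median of 335.5 bp (304 to 415) against 677 bp (542 to 734) elsewhere, and 50 of the 54 had NFO H3K4me3. The X chromosome held 8.17% of all NFO H3K4me3 peaks, beside 3.32% in NSCs and 3.71% in OPCs.

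OLIG2 was called in a minority of the domains. An OPC OLIG2 peak overlapped 70 (11.0%, 8.65 to 13.7), against 5.7% of all domains, 10.0% (8.19 to 12.1) of those that kept both marks and 5.97% (5.55 to 6.41) of the non-bivalent peaks. An NFO OLIG2 peak overlapped 98 (15.4%, 12.6 to 18.4), against 10.5% of all domains, 14.3% (12.1 to 16.7) and 6.86% (6.41 to 7.33). Both stages had a peak in 22 domains (3.45%, 2.17 to 5.17) and either stage in 146 (22.9%, 19.7 to 26.3). Over all domains these shares were 1.46% and 14.7%. In the domains that kept both marks they were 3.31% (2.26 to 4.67) and 21.05% (18.5 to 23.8), with intervals that overlap those of the 638. Per covered length, the 638 held 44.5 OPC and 63.5 NFO OLIG2 peaks per Mb, and all domains 34.7 and 64.5, so in NFOs the density was that of bivalent domains in general. The domains with no mark in OPCs held 61.9 and 133.8 per Mb, those with H3K27me3 alone 32.5 and 71.8, those that kept both marks 19.6 and 28.6, and the non-bivalent peaks 29.3 and 34.1.

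Among the strongest OPC OLIG2 peaks in the domains were those at *Gdi2*, a Rab GDP dissociation inhibitor gene (31.8-fold), at *Virma*, a subunit of the RNA methylation complex (28.0-fold), at *Rsbn1l*, beside the start of a lncRNA (27.1-fold), and at *Shank2* (18.02-fold). In NFOs they were at *Mindy2*, a deubiquitinase gene (37.7-fold), *Virma* (29.0-fold), *Spock2*, a proteoglycan gene (22.3-fold), *Sephs1* (19.7-fold) and *Tet2*, a methylcytosine dioxygenase gene (18.7-fold). Each of these peaks lay within 1 kb of a TSS, and each held a run of at least 14 A or T. *Virma*, *Mindy2*, *Spock2* and *Sephs1* had peaks at both stages, with OPC folds of 28.0, 17.7, 15.6 and 12.7. Further domains with both were the one near *Astn2* (17.3-fold in OPCs and 14.9-fold in NFOs), whose printed peak holds CAGCTG and no run, *Fars2* with *Lyrm4* (16.9- and 15.5-fold), *Tia1* (13.8- and 11.1-fold), *Gabra2*, a GABA receptor gene (10.8- and 14.2-fold), and *Sox4* (4.66- and 15.4-fold). Of the study's list, *2210016F16Rik* had a peak in its domain at both stages (7.08- and 11.9-fold). *Fbll1* had one in OPCs (7.72-fold), and *Rell1* (13.8-fold) and *Ugt8a* (17.0-fold) had one in NFOs. The paper counts OLIG2 peaks over the gene body and an upstream region. By that wider count it reports peaks in both OPCs and NFOs for most genes of the list.

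Most OLIG2 peaks in the domains sat on promoters and on H3K4me3. Of 75 OPC peaks, 56 (74.7%) overlapped an OPC H3K4me3 peak, 51 (68.0%) overlapped an NSC H3K27me3 peak and 45 (60.0%) had a summit within 1 kb of a TSS, against 13.5% of all OPC OLIG2 peaks. Of 107 NFO peaks, 77 (72.0%) overlapped NFO H3K4me3, 65 (60.7%) overlapped NSC H3K27me3 and 54 (50.5%) were within 1 kb of a TSS, against 8.78% of all. Of the 75 OPC peaks 20 overlapped an NFO peak (26.7%), against 14.3% of all OPC OLIG2 peaks. By the rule each domain holds an OPC H3K4me3 and an NSC H3K27me3 peak, so overlap with these marks is in part built in. The overlaps with marks were not computed over all OLIG2 peaks. Since most of the domains also lie at promoters, these shares are a description of where the peaks are.

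E-boxes were about as frequent as in the whole lists: CANNTG was present in 48 of the 75 peaks of OPCs (64.0%, 52.1 to 74.8) and in 76 of the 107 of NFOs (71.0%, 61.5 to 79.4), against 70.4% and 69.3% of all listed OLIG2 peaks, which were of like length. The form CAGCTG, also the same on either strand and part of the first count, was present in 13.3% and 11.2%, against 13.6% and 10.1%. A run of 12 or more A or T lay at the centre of 64 OPC peaks of these domains (85.3%, 75.3 to 92.4) and at that of 76 NFO peaks (71.0%, 61.5 to 79.4). In windows 1 kb before and after, the share was 9.33% and 6.67% in OPCs and 11.2% and 14.95% in NFOs. Over all listed peaks it was 68.0% in OPCs and 65.2% in NFOs, against 3.20% to 3.48% at 1 kb. Whether the runs bear on these calls was not tested, and the OPC H3K4me3 peaks of the same domains had a run at the centre in 13.0%, beside 9.39% and 10.5% at 1 kb.

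**Figure D5:**
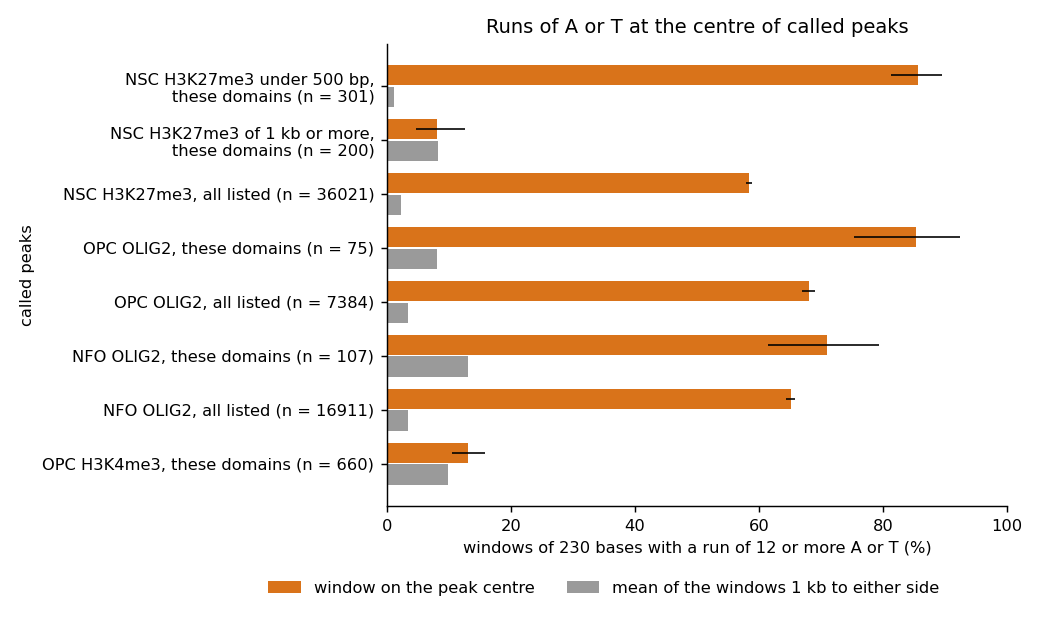
Share (%) of 230-base windows with a run of 12 or more A or T, at the centre of called peaks (orange, with exact binomial 95% intervals) and as the mean of the windows 1 kb to either side (grey). NSC H3K27me3 peaks under 500 bp (85.7%) and OPC OLIG2 peaks (85.3%) of these domains stand far above their flanks, and H3K27me3 peaks of 1 kb or more (8.0%) and OPC H3K4me3 peaks (13.0%) do not.

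With every peak that had such a run at its centre left out of all lists, which was chosen after seeing the data, 2287 NSC bivalent domains remained and 359 of them were H3K4me3 only in OPCs (15.7%). Of the original 638, 310 kept that state, 309 had no bivalent domain and 19 had another OPC state. *Sox10* and *Zfp488* had no bivalent domain, and *Zfp536*, *Pcdh15*, *Ugt8a*, *C1ql1*, *Rbfox3* and *Kmt2a* kept the state. Under the fold and FDR filter of the study's methods, with runs left in, *Rbfox3* (3.48-fold) and *Kmt2a* (3.07-fold) had no bivalent domain. The other genes of this list kept the state under that filter. With peaks on runs left out, NFO H3K4me3 was called in 65.2% of the 359, NFO H3K27me3 in 5.29%, OPC OLIG2 in 1.67% and NFO OLIG2 in 6.69%. The OLIG2 lists lost their peaks on runs too, which were 85.3% of the OPC and 71.0% of the NFO peaks in the 638. Lower OLIG2 shares were therefore in part built in. The same shares over the 2287 domains were not computed.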

How the data were processed

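By the study's methods, alignment was to mm10 with Bowtie2 and only unique alignments were retained. The authors ran MACS2 in broad mode for both histone marks and SPP for OLIG2, and left out blacklisted regions. OLIG2 libraries were made with the DNA SMART ChIP-Seq Kit, and the kit for the histone libraries is not given in the sources used here. Each deposited peak has a fold enrichment over input (a ratio) and a −log10 FDR, both as the authors' peak callers wrote them, and the deposited histone peaks also have a −log10 p-value. The lists include peaks under the filter of the study's methods, and all listed peaks were used, with that filter as an alternative. The lists of RNA bound by OLIG2 and the inputs were not used here, and some items are not reported here.

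Domains, states and overlaps (at least 1 bp) were computed with Python 3.11.15, pandas 2.3.3, NumPy 2.4.6, SciPy 1.17.1 and pysam 0.24.0, and were tested on simulated peaks. Fold and FDR are the highest, and widths the sum, over the peaks of a domain. A gene belonged to a domain when a TSS of GENCODE release M21 (21951 protein-coding and 13374 lncRNA genes) was within 2 kb. Shares have exact Clopper-Pearson intervals and medians have order-statistic intervals, both at 95%, which cover counting error only. Depth is unknown.

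Base content was computed for the 633 domains on assembled chromosomes. Runs were sought in windows of 230 bases on each peak's midpoint. Members, lists and the rule for named genes were chosen with earlier results of these data known, and the search for runs was added after seeing the sequences. Named were genes of the lists, the 10 widest and the 5 strongest NSC H3K27me3 marks, the 5 strongest OLIG2 peaks per cell type, domains with OLIG2 in both, the 5 with most NFO H3K27me3 and the 3 widest without NFO H3K4me3. Alternatives were the filter, a stricter one (fold above 5 for histone marks and 10 for OLIG2), an overlap of 200 bp, NSC H3K27me3 of 1 kb or more, no OPC H3K27me3 within 2 kb, a TSS within 1 kb, protein-coding TSSs, autosomes alone and no peaks on runs.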

Additional observations from a re-analysis of the deposited data

How the results depend on the processing

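No paired analysis was possible because each condition had 1 library. Under the filter of the study's methods 309 domains were H3K4me3 only in OPCs, 8.65% of the bivalent domains, with NFO H3K4me3 in 73.1%, NFO OLIG2 in 12.3%, a TSS within 2 kb in 83.5% and a median NSC H3K27me3 width of 332 bp. Of the 638, 289 kept the state under this filter, 334 had no bivalent domain and 15 had another OPC state. The stricter filter left 59 domains (10.4%), with NFO H3K27me3 in 0 of them, NFO OLIG2 in 8.47%, a TSS in 88.1% and a median width of 361 bp. An overlap of 200 bp gave a share of 11.7%, and no OPC H3K27me3 within 2 kb gave 8.599%. NSC H3K27me3 peaks of 1 kb or more gave 204 domains (10.2%), with NFO H3K27me3 in 3.92%, OPC OLIG2 in 15.2% and a median width of 1326 bp.

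Of the alternatives chosen after seeing the data, autosomes alone moved no value beyond its interval. Leaving out peaks centred on a run of A or T moved all 8 values: 359 domains, 15.7% of the bivalent domains, NFO H3K4me3 in 65.2%, NFO H3K27me3 in 5.29%, OPC OLIG2 in 1.67%, NFO OLIG2 in 6.69%, a median width of 1046 bp and a TSS in 85.8%. Since OLIG2 peaks on runs were left out as well, the lower OLIG2 shares were in part built in. Other causes were not tested. The number of domains and the H3K27me3 width thus depend on which peaks are accepted, whereas NFO H3K4me3 was called in 65.2% to 81.4% and NFO H3K27me3 in 0% to 5.29% under all alternatives.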
